A study of Drosophila melanogaster with 4 samples.

Results

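The genes described here belong to the cytosolic heat shock and co-chaperone system of Drosophila melanogaster and were 6 of the 2377 genes that the array annotation names by exactly 1 symbol. They were Hsp68, Hsc70-1 and Hsc70-2 of the Hsp70 family, the J-domain protein DnaJ-1, the BAG-domain protein stv (starvin) and the tetratricopeptide co-chaperone Sgt. They were chosen by symbol, with earlier results of these data known, and all 6 were found, on 32 spots. RNA from adult females of the wild-type strain Oregon-R, aged 10 to 20 days and kept at 60% relative humidity under 16 h of light and 8 h of dark, was compared on 2-colour spotted arrays. A temperature of 23 °C is given for 3 of the 4 arrays. The first RNA came from females given 2 mL of a Piper nigrum (black pepper) seed extract at 0.9 mg/mL in 99% ethanol from a Potter's tower, a device that sprays a surface evenly. The other came from females given 2 mL of 99% ethanol in the same way, so both groups carried the solvent and both were sampled after 4 h. Each RNA came from a pool of about 240 whole females, the pools are numbered 1 and 3, and each pair of pools was hybridised once with the extract RNA in Cy3 and once with it in Cy5. Both arrays of a pool number hold the same RNAs and were counted as 1 replicate, which gives n = 2. The limma p-values rest on the spread between these pools, moderated towards the spread over all features. The fit had 1 residual and 8.19 prior degrees of freedom.

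Proteins of the Hsp70 family bind exposed hydrophobic stretches of unfolded proteins in a cycle driven by ATP. J-domain proteins such as DnaJ-1 deliver the substrate and stimulate ATP hydrolysis, BAG-domain proteins such as stv promote the release of ADP, and Sgt, as known from its yeast and mammalian counterparts, docks through its tetratricopeptide repeats on the C-terminal tail of Hsp70 and Hsp90 proteins. Hsp68 is induced by heat and other protein-damaging stress through the transcription factor Hsf, whereas the heat shock cognates (Hsc70) are named for family members that are also made without stress. In flies, stv is known for its part in the upkeep of muscle, where it works with Hsc70 in the removal of damaged filamin.

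All values below are log2 ratios between both channels of an array, centred on the array's median, read as extract over ethanol. This direction was assumed, because no source used here states the numerator of the deposited ratios. If the ratios were instead deposited by dye, the arrays with extract in Cy5 would have to be turned, that is, multiplied by -1, before averaging, and that reading is given beside the first. The turned value is also the difference between the Cy3 and the Cy5 arrays divided by 2. In the first reading, an extract effect shared by both label orientations cancels in this difference. Over all spots the 2 arrays of a dye swap were nearly uncorrelated (Pearson r of 0.0211 in pool 1 and 0.0632 in pool 3). This correlation did not settle which reading applies. At a limma adjusted p under 0.05 there were 6 of 13607 features as deposited and 0 turned. At an unadjusted limma p under 0.05 there were 999 as deposited and 647 turned. A ratio holds no level, so it was not possible to see how strongly each gene was expressed or to check the labelled tissue against its markers. In whole animals, a change in the number of cells of a type and a change in RNA per cell cannot be told apart.

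None of the 6 genes passed the test in either direction (limma, Benjamini-Hochberg over 13607 features, threshold 0.05), where 6 of all features (0.0441%) and 1 of the named genes (0.0421%) did. At an unadjusted limma p under 0.05 there were 2 of the 6, against 3.83% of the named genes. They were stv above 0, as were 2.73% of the named genes, and Sgt below 0, as were 1.09%. Since the 6 were chosen with earlier results of these data known, these counts are a description. Averaged over both pools, the ratios ran in the order stv at 0.37, Hsp68 at 0.02, Hsc70-1 at 0.01, DnaJ-1 at -0.06, Hsc70-2 at -0.28 and Sgt at -0.40. The pool values of every neighbouring pair in this order overlapped, and those of stv and Sgt did not. The median of the 6 was -0.02, with 3 above 0, beside 0.01 for the named genes. With the Cy5 arrays turned, 5 of the 6 lay above 0 with a median of 0.29, beside 0.002 for the named genes. By label orientation, each of the 3 Hsp70-family genes lay on average above 0 with the extract in Cy3 and below 0 with it in Cy5, as described next.

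**Figure D1:**
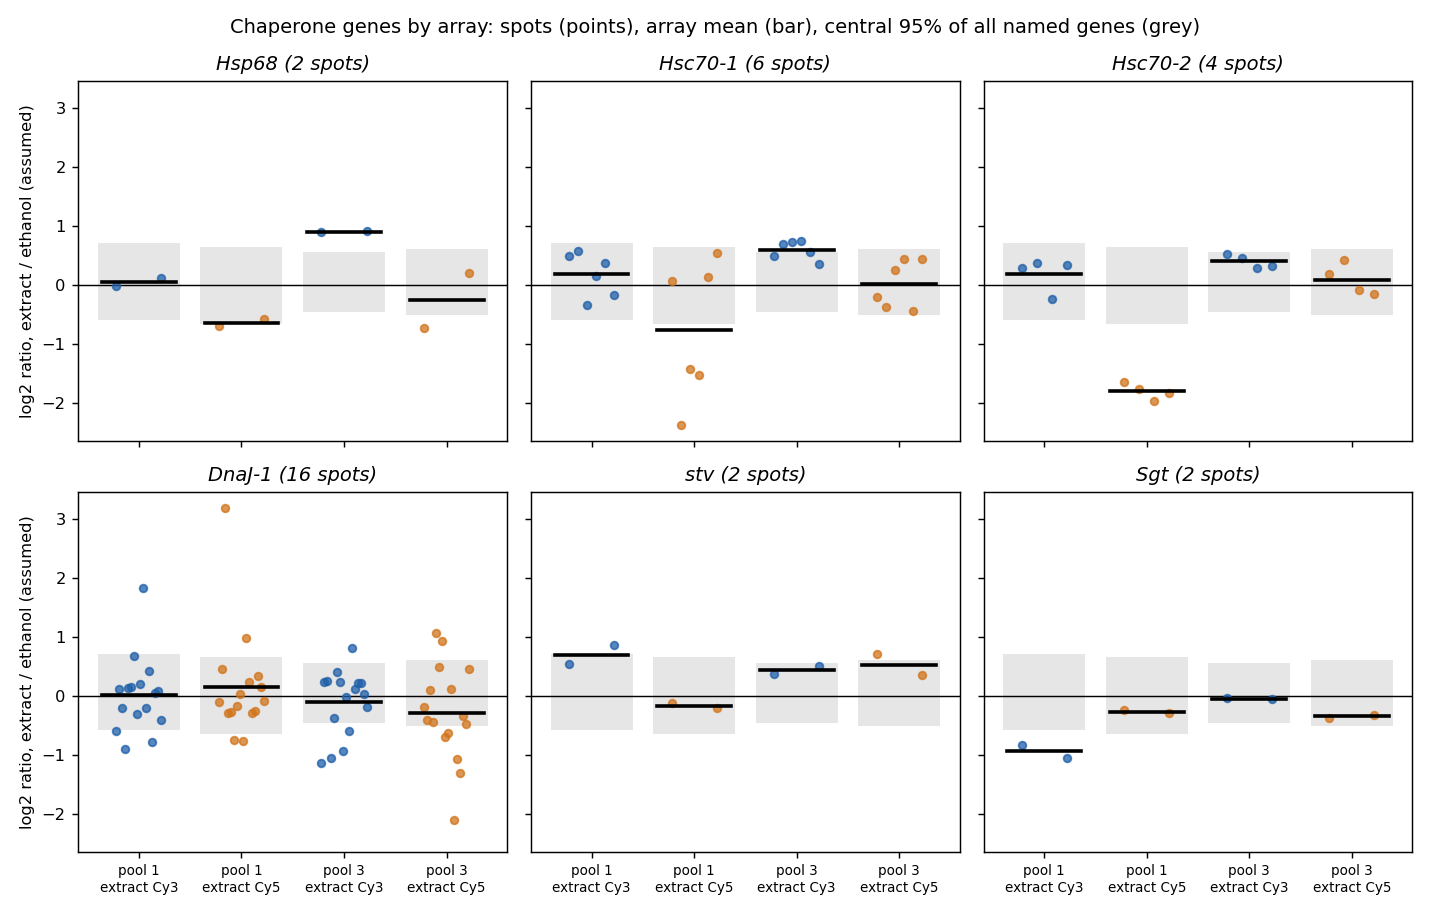
Each panel plots the log2 ratio (y axis, extract over ethanol as assumed) of 1 gene on the 4 arrays (x axis), with points for single spots, a black bar for the array mean and grey for the central 95% of 2377 named genes. Hsc70-2 sits at -1.80 on the Cy5 array of pool 1 with all 4 spots together, while the 16 spots of DnaJ-1 scatter on both sides of 0 on every array.

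Hsp68, the stress-inducible member of the 3, is represented by 2 adjacent spots. Its ratio was 0.06 in pool 1 and 0.91 in pool 3 with the extract in Cy3, and -0.63 in pool 1 and -0.26 in pool 3 with the extract in Cy5. Both Cy3 arrays thus lay above 0 and both Cy5 arrays below it. Of the 6 genes, this was the 1 with that split, which 6.56% of the named genes showed. On the Cy3 array of pool 3, Hsp68 had the 10th highest ratio of the 2377 named genes, and on the Cy5 array of pool 1 the 66th lowest. The opposite signs cancelled in the mean, which was 0.02 ± 0.18 (limma standard error, n = 2 pools, adjusted p = 0.989). The pool values were -0.29 in pool 1 and 0.33 in pool 3. The mean was -0.27 without the Cy3 array of pool 3 and 0.31 without the Cy5 array of pool 3.

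Hsc70-1, a heat shock cognate, is represented by 3 pairs of adjacent spots. With the extract in Cy3 its ratio was 0.18 in pool 1 and 0.60 in pool 3, and with the extract in Cy5 it was -0.76 in pool 1 and 0.02 in pool 3. The Cy5 array of pool 1 was the low one, and the other 3 arrays lay above 0. On that array the 3 pairs did not agree: their means were -1.15, -1.47 and 0.34. The first of these pairs held 1 spot at -2.36 and its neighbour at 0.07. On the Cy3 array of pool 3, in contrast, all 6 spots lay between 0.37 and 0.75. The mean over pools was 0.01 ± 0.18 (limma, n = 2, adjusted p = 0.992). It was -0.22 without the Cy3 array of pool 1 and 0.25 without the Cy5 array of pool 1.

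Hsc70-2, the other cognate, is represented by 2 pairs of spots and had the array mean farthest from 0 of the 6 genes. It stood at -1.80 on the Cy5 array of pool 1, against 0.19 on the Cy3 array of pool 1, 0.40 on the Cy3 array of pool 3 and 0.09 on the Cy5 array of pool 3. The first value was the 8th lowest of the 2377 named genes on that array, and its 4 spots lay close together, between -1.95 and -1.65. The low reading was therefore shared by both spot pairs of the gene on that array, and the 3 other arrays did not show it. The mean over pools was -0.28 ± 0.23 (limma, n = 2, adjusted p = 0.819). Without the Cy5 array of pool 1 it was 0.22, above 0, and without the Cy3 array of pool 1 it was -0.77.

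The 3 Hsp70-family genes can be compared by their 6 spot pairs. With the extract in Cy3, 6 of 6 pairs lay above 0 in pool 3 (0.31 to 0.91) and 5 of 6 in pool 1 (-0.09 to 0.53). With the extract in Cy5, 5 of 6 lay below 0 in pool 1 (-1.89 to 0.34) and 4 of 6 in pool 3 (-0.28 to 0.35). On that last array the gene means of Hsc70-1 (0.02) and Hsc70-2 (0.09) nevertheless lay above 0. Of the 6 pairs, 3 belong to Hsc70-1. The named genes fell about evenly on both sides of 0, with medians of -0.004 to 0.012 on the 4 arrays. The share of all named pairs on each side was not counted. These pairs are not replicates, since the genes share stretches of coding sequence and a spotted probe may bind the RNA of more than 1 of them. The heat-inducible Hsp70A and Hsp70B genes and the abundant cognate Hsc70-4 were not measured under their own names here, and any share of their RNA in these spots was not tested.

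With the Cy5 arrays turned, Hsp68 stood at 0.46 ± 0.15 (limma, n = 2, unadjusted p = 0.0166), Hsc70-1 at 0.38 ± 0.15 (limma, unadjusted p = 0.0354) and Hsc70-2 at 0.57 ± 0.21 (limma, unadjusted p = 0.0257). Among the 2377 named genes these were the 13th, 25th and 9th highest turned ratios. At an unadjusted limma p under 0.05 there were 3 of the 6 genes in the turned reading, all above 0. Of the named genes, 2.1% were so on either side of 0 and 1.22% above it. This count too is a description, as the 6 were chosen with earlier results of these data known. None of the 3 genes passed after adjustment (limma, adjusted p = 0.962 for each). In that reading 0 of 13607 features (0%) passed, and 647 had an unadjusted limma p under 0.05. All 3 values fell without the Cy5 array of pool 1, and also without the Cy3 array of pool 3 (alternatives chosen after seeing the data). Without the Cy5 array of pool 1 the turned ratios were 0.32 for Hsp68, 0.24 for Hsc70-1 and 0.17 for Hsc70-2, with unadjusted limma p of 0.165, 0.264 and 0.404. Without the Cy3 array of pool 3 they were 0.30, 0.22 and 0.45, with unadjusted limma p of 0.150, 0.316 and 0.148. Without the Cy3 array of pool 1 the turned ratio of Hsc70-2 was 0.98. All 3 genes stayed above 0 without any 1 of the arrays. What the turned value means depends on the numerator of the ratios, which is not known. For Cy3-over-Cy5 ratios it is extract over ethanol, and for Cy5-over-Cy3 ratios it is ethanol over extract. In the first reading, with extract over ethanol on every array, an extract effect shared by both label orientations cancels in it. The turned values of these 3 genes then give a difference between label orientations and are no measure of an extract effect.

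**Figure D2:**
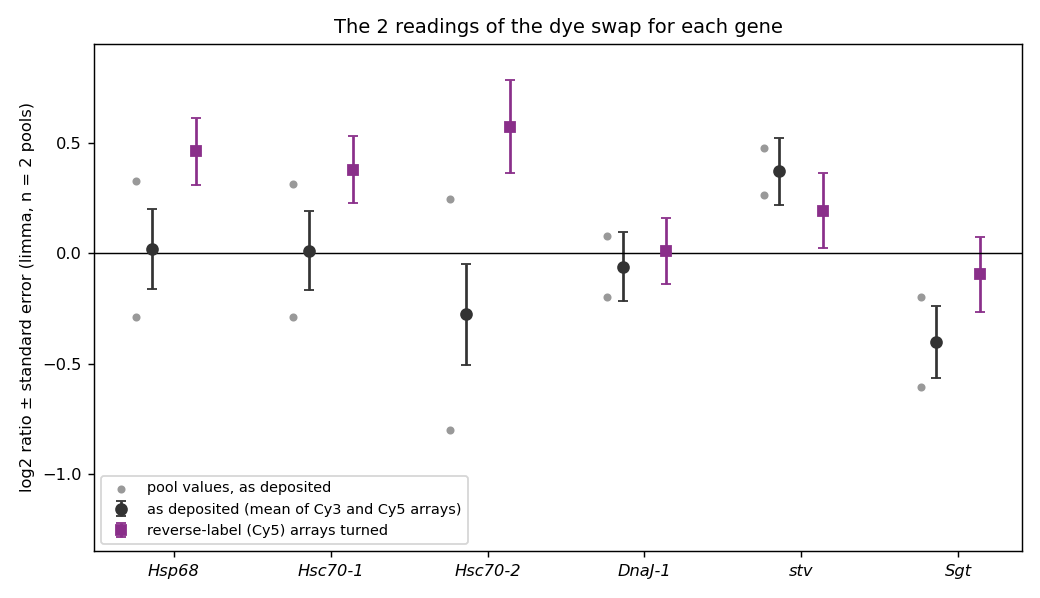
The y axis gives the log2 ratio with the limma standard error (n = 2 pools) for each gene on the x axis, as deposited (dark circles, with the pool values as grey points) and with the Cy5 arrays turned (purple squares). Hsp68, Hsc70-1 and Hsc70-2 lie at 0.02, 0.01 and -0.28 as deposited and at 0.46, 0.38 and 0.57 turned, whereas stv and Sgt lie farther from 0 as deposited.

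DnaJ-1, the J-domain partner that activates Hsp70 proteins and is itself heat-inducible, had 16 spots by the annotation, in 8 adjacent pairs, the most of the 6. Named genes had a median of 2 spots, and 7 of them, DnaJ-1 included, had at least as many as DnaJ-1. Whether all 16 spots hold DnaJ-1 was not tested. Its array means were 0.01 and -0.11 with the extract in Cy3, in pools 1 and 3, and 0.15 and -0.29 with the extract in Cy5. The Cy5 array of pool 3 lay farthest from 0, with 13.46% of the named genes lower. The mean over pools was -0.06 ± 0.16 (limma, n = 2, adjusted p = 0.96) and 0.01 turned. The array means hid a wide scatter of spots, from -0.91 to 1.82 on the Cy3 array of pool 1, from -0.77 to 3.18 on the Cy5 array of pool 1, from -1.15 to 0.80 on the Cy3 array of pool 3 and from -2.11 to 1.06 on the Cy5 array of pool 3. On the Cy5 array of pool 1, the spot at 3.18 stood beside a neighbour at -0.29.

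The disagreement of DnaJ-1 spots was set against all 2833 adjacent pairs of spots that the annotation gives to 1 gene. Those pairs differed within an array by a median of 0.185 to 0.297, and their 90th percentiles were 0.629 to 0.805. The 8 DnaJ-1 pairs gave 32 such differences over the 4 arrays, with a median of 0.687, and 14 of the 32 lay above the 90th percentile of their array. The other 5 genes together also gave 32 differences, with a median of 0.135 and 3 above that percentile. The median difference was thus below that of all named pairs for the other 5 genes together, and above it for DnaJ-1. With each spot as its own feature, 7 of the 16 DnaJ-1 spots had means above 0 and 9 below, from -0.68 to 0.83. Of these, 6 had an unadjusted limma p under 0.05, as did 1262 of all 16896 spots. After adjustment 0 of the 16 passed (limma, lowest adjusted p = 0.233), and 19 of all spots did. The annotation lists no cDNA accession for the spots of DnaJ-1, Hsp68, Hsc70-1 or Hsc70-2, as for 16.7% of the spots with 1 symbol, so whether different pairs of a gene hold the same probe is not known.

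**Figure D3:**
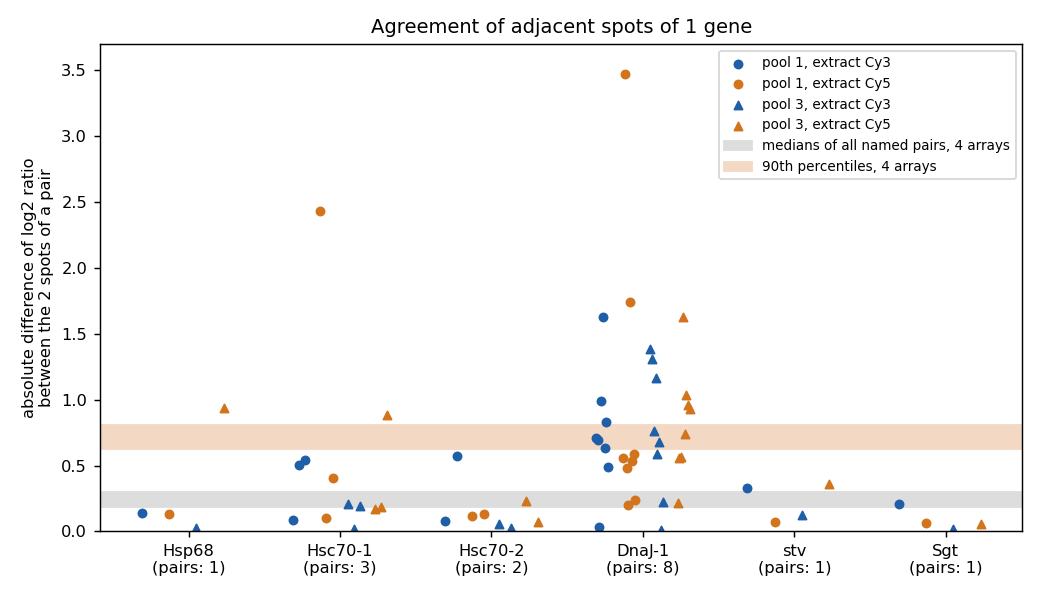
The y axis gives the absolute difference of log2 ratio between both spots of an adjacent pair, for each of the 6 genes on the x axis, with 1 point per pair and array (colour for the dye of the extract, shape for the pool). Grey and tan bands show the medians (0.185 to 0.297) and the 90th percentiles (0.629 to 0.805) of 2833 named pairs on the 4 arrays. DnaJ-1 points reach 3.47 with a median of 0.687.

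stv, the nucleotide exchange factor, had the highest mean of the 6 as deposited. Its ratio was 0.70 in pool 1 and 0.44 in pool 3 with the extract in Cy3, and -0.17 in pool 1 and 0.52 in pool 3 with the extract in Cy5. Both spots lay below 0 on the Cy5 array of pool 1 and above it on the other 3 arrays. The pool values were 0.26 and 0.48, both above 0, and their mean was 0.37 ± 0.15 (limma, n = 2, unadjusted p = 0.0371, adjusted p = 0.642). That was the 60th highest of the 2377 named genes. The mean was 0.16 without the Cy3 array of pool 1 and 0.59 without the Cy5 array of pool 1, and it lay above 0 without either array of pool 3. Turned, it was 0.19 ± 0.17.

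Because stv is known from muscle, a muscle list was read beside it. That list was chosen with earlier results of these data known, so its counts are a description. Of its 7 measured genes, 6 lay above 0 and 4 of them on all 4 arrays, with a median of 0.35 and 0 past the test (limma over all features). Of all named genes, 8.83% lay above 0 on all 4 arrays. At an unadjusted limma p under 0.05 there were 4 of the 7, all above 0, against 2.73% of the named genes. The flight-muscle actin Act88F stood at 1.13, the troponin C gene TpnC41C at 0.74, Zasp66 of the Z-disc at 0.37 and paramyosin (Prm) at 0.35. Of the list, Act88F came closest to the threshold of 0.05 (limma, adjusted p = 0.0506). Troponin T (up), TpnC73F and Tm2 stood at 0.18, 0.17 and -0.01. Most of the list thus lay on the same side of 0 as stv in this reading, and its part in the stv ratio was not tested. With the Cy5 arrays turned, 3 of the 7 lay above 0 with a median of -0.008, and Act88F stood at 0.12 and TpnC41C at -0.22. On the Cy5 array of pool 1, where stv was at -0.17, the median of the muscle list was 0.41. The male accessory gland and testis list (Acp36DE, Acp53C14a, dj) had a median of -0.01 over its 3 measured genes, and the ovary list (yl, exu, pum) likewise -0.01.

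Sgt was the lowest of the 6 and the 1 below 0 on all 4 arrays, which 7.99% of the named genes were. Its ratio was -0.94 in pool 1 and -0.05 in pool 3 with the extract in Cy3, and -0.27 in pool 1 and -0.35 in pool 3 with the extract in Cy5. The Cy3 array of pool 1 was far lower than the others, and there Sgt ranked 5th lowest of the 2377 named genes. Its 2 spots agreed on every array, differing by 0.02 to 0.21. The pool values were -0.60 and -0.20, with a mean of -0.40 ± 0.16 (limma, n = 2, unadjusted p = 0.0353, adjusted p = 0.641), the 21st lowest of the named genes. Without the Cy3 array of pool 1 the mean was -0.23, and without any other single array it stayed below 0 as well. Turned, it was -0.09 ± 0.17.

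By the root-mean-square ratio over the 4 arrays, Hsc70-2 (0.927) and Hsp68 (0.568) were farthest from 0 among the 6. The named genes with the smallest root-mean-square difference from Hsc70-2 over these 4 arrays were CG9747 (0.219), the tubulin gene alphaTub85E (0.255) and the UDP-glycosyltransferase gene Ugt37E1 (0.335). Choosing by these same arrays favours genes with a low value on the Cy5 array of pool 1. There CG9747 stood at -1.56, alphaTub85E at -1.996 and Ugt37E1 at -1.32. For Hsp68 the closest genes were CG10195 (0.128), mmy, which makes UDP-N-acetylglucosamine (0.209), and the muscle tropomyosin Tm2 (0.221). Tm2 stood at 0.67 on the Cy3 array of pool 3 and at -0.64 on the Cy5 array of pool 1, where Hsp68 was at 0.91 and -0.63. Between the 6 genes themselves, Hsc70-1 was nearest to Hsp68, at a difference of 0.226. The other 4 lay farther away, stv at 0.602, DnaJ-1 at 0.643, Hsc70-2 at 0.663 and Sgt at 0.717. This likeness rests on 4 arrays and is a description.

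The wider chaperone system was read from a list of 94 names in roles, older names of some genes included. Of the 88 names other than the 6 genes, 25 were measured. None of the 25 passed the test in either direction (limma, lowest adjusted p = 0.752). At an unadjusted limma p under 0.05 there were 0 of the 25 (lowest 0.115), against 3.83% of the named genes. Of the 25, 10 lay above 0 and 15 below, beside 1225 above and 1152 below among the 2377 named genes. The 25 had a median of -0.02, beside 0.01 for all named genes, and ranged from -0.30 to 0.19. With the Cy5 arrays turned, 10 again lay above 0 with a median of -0.02, and 16 of the 25 had the opposite sign to the first reading. The transcription factor Hsf, the Hsp90 gene Hsp83 and the small heat shock protein genes Hsp22, Hsp23, Hsp26 and Hsp27 were not measured under their own names here.

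Among 9 other J-domain genes, 4 lay above 0 and 5 below, between -0.16 and 0.17. CG2887 stood at 0.17 ± 0.15, CG8476 at 0.07, CG17187 at 0.06 and DnaJ-H at 0.01. CG7130 stood at -0.003, CG14650 at -0.02, CG7872 at -0.10, Droj2 at -0.13 and wus at -0.16 ± 0.16. Droj2 was below 0 on all 4 arrays, between -0.17 and -0.09. CG14650 and CG8476 had the same split as Hsp68, above 0 on both Cy3 arrays and below 0 on both Cy5 arrays, and stood at 0.23 and 0.26 turned.

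Of the other co-chaperones that bind Hsp70 or Hsp90 tails through tetratricopeptide repeats, STUB1, the ubiquitin ligase that marks chaperone-bound proteins for degradation, stood at -0.15 ± 0.15. Its 4 arrays lay between -0.19 and -0.09, all below 0 as for Sgt but closer together. Dpit47 stood at 0.14 ± 0.15, with 2 arrays on each side of 0. The Hsp90 co-chaperone p23 stood at 0.03 ± 0.17, and at -0.002 with arrays scaled to equal spread. Both measured small heat shock protein genes lay above 0, CG7409 at 0.19 ± 0.16 and CG4461 at 0.05 ± 0.15. Turned, they lay at -0.17 and -0.07.

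Chaperonins fold proteins inside a closed chamber, and prefoldin hands them substrates. Of these 11 genes, 2 lay above 0 and 9 below, beside 1225 above and 1152 below among the 2377 named genes. The median of the 11 was -0.10, and 0 passed the test (limma). The cytosolic chaperonin subunits CCT1, CCT2, CCT4, CCT5 and CCT8 stood at -0.11, -0.09, -0.22, -0.15 and -0.11. CCT4 was below 0 on all 4 arrays, and CCT2 lost its sign without either of 2 arrays, at 0.11 without the Cy5 array of pool 1 and 0.00073 without the Cy3 array of pool 3. CG11267, the fly counterpart of the mitochondrial co-chaperonin Hsp10, was the lowest of the 25 in this reading at -0.30 ± 0.17 (limma, n = 2, adjusted p = 0.752). Turned, it stood at -0.02 and Hsp60D was the lowest at -0.26. The Hsp60 paralogs Hsp60B, Hsp60C and Hsp60D stood at -0.01, -0.07 and 0.06, and the prefoldin genes Pfdn4 and mgr at -0.10 and 0.03. Turned, 4 of the 11 lay above 0 with a median of -0.02.

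**Figure D4:**
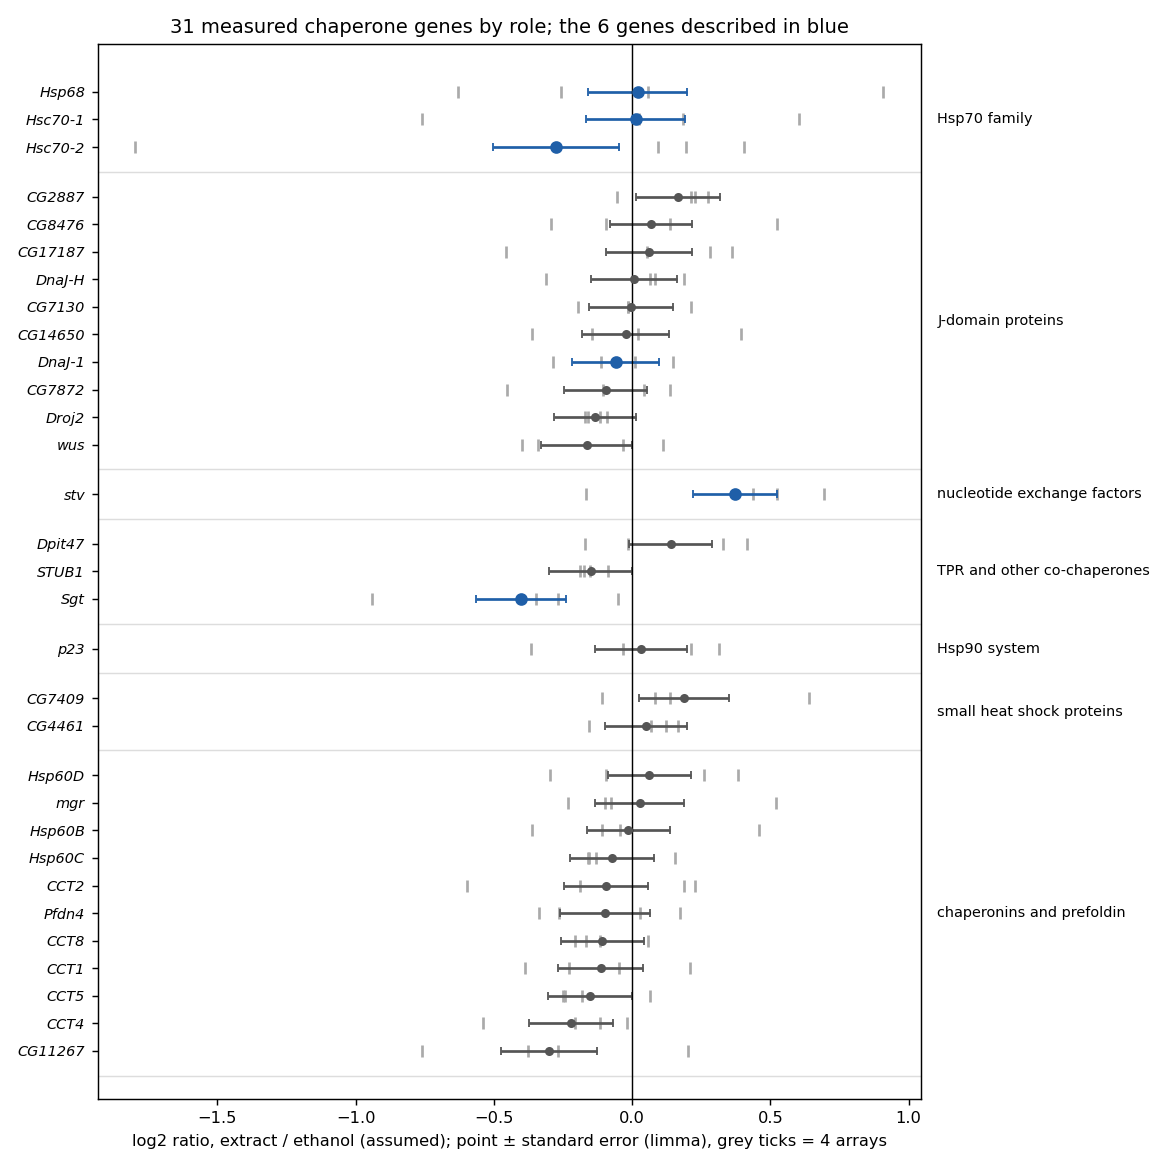
The x axis gives the log2 ratio (extract over ethanol as assumed) of the 31 measured chaperone genes, grouped by role down the page, as points with the limma standard error and grey ticks for the 4 arrays. The 6 genes described first are blue. As deposited, stv at 0.37 and Sgt at -0.40 are the outermost means, and the other 25 genes lie between -0.30 and 0.19.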

How the data were processed

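The authors deposited a log2 ratio of both channels for each of 16896 spots on 4 arrays, and 0 values were missing. Base 2 was assumed. How the authors scanned, corrected, normalized and filtered the spots is not given in the sources used here. Signal over background was not used. Array medians lay within 0.00218 of 0 and were subtracted. Per the labels, channel 1 held ethanol RNA and channel 2 extract RNA on all arrays, with 80 µg of RNA per labelling. Symbols were taken from the platform annotation (1 symbol for 5666 spots, several for 152, none for 11078) and were checked by gene number against RefSeq's table of assembly GCF_000001215.4, with 5666 matched and 0 changed.

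Spots of a gene were averaged per array and other spots kept single (13607 features), the dye swap was averaged per pool, and the ratio was tested against 0, two-sided, with limma 3.58.1 (lmFit, eBayes) in R 4.3.3. The fit had 1 residual and 8.19 prior degrees of freedom. The number of arrays limits the precision. The 6 genes, the lists and the rule for named genes (the 6, every measured gene of the chaperone list, and the 3 genes most like each of the 2 genes farthest from 0) were chosen with earlier results of these data known. Alternatives turned the Cy5 arrays, left out each array, skipped the centring, scaled arrays to equal spread, fitted 4 arrays with a replicate block, or took named genes alone, single spots, spot medians or robust moderation. No sequences are shown, since no sequence table was used here.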

Additional observations from a re-analysis of the deposited data

Results flagged for a closer look

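In 2 of 32 genes and list medians, 1 of the 4 arrays lay far from the other 3 by Dixon's ratio, where chance gives about 1 in 20, or 1.6. Hsc70-2 stood at -1.80 on the Cy5 array of pool 1, with the others between 0.09 and 0.40. Hsp60C stood at 0.16 on the Cy3 array of pool 3, with the others between -0.16 and -0.13.

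Hsp68 was above 0 on both arrays with the extract in Cy3 (mean 0.48) and below 0 on both with it in Cy5 (mean -0.44). The difference divided by 2, 0.46 ± 0.15, did not pass the test (limma, n = 2 pools, adjusted p = 0.962).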

How the results depend on the processing

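None of the 6 genes and none of the 25 other chaperone genes passed the limma test under any of the 12 alternatives, with 0 to 3 of the 6 and 0 or 1 of the 25 at an unadjusted limma p under 0.05. The 6 calls over all features became 0 with the Cy5 arrays turned (647 at an unadjusted limma p under 0.05), 42 with arrays scaled to equal spread, 12 with the 4 arrays and the replicate block, 10 with named genes alone, 19 with single spots and 0 to 11 without 1 array (0 without the Cy3 array of pool 3, 11 without the Cy5 array of pool 1). In the block fit, the consensus correlation between the arrays of a pool, taken about each feature's mean, was -0.244. That fit changed no call among these 31 genes. Of the 6 genes, 3 changed sign without 1 array: Hsp68 (-0.27 to 0.31), Hsc70-1 (-0.22 to 0.25) and Hsc70-2 (-0.77 to 0.22). All 6 moved by over 1.5 times or changed sign without some array, as did 22 of the 25. Without 1 array, DnaJ-1 lay at -0.10 to -0.017, stv at 0.16 to 0.59 and Sgt at -0.57 to -0.23. Among the others, 13 changed sign: DnaJ-H (-0.088 to 0.10), CG7130 (-0.061 to 0.054), CG7872 (-0.24 to 0.052), CG14650 (-0.16 to 0.11), CG8476 (-0.14 to 0.27), CG17187 (-0.12 to 0.25), p23 (-0.052 to 0.11), CG4461 (-0.031 to 0.13), CCT2 (-0.30 to 0.11), Hsp60B (-0.22 to 0.19), Hsp60C (-0.15 to 0.0052), Hsp60D (-0.077 to 0.20) and mgr (-0.13 to 0.18). With the Cy5 arrays turned, signs changed for Hsc70-2 (0.57), DnaJ-1 (0.0093), Droj2 (0.0034), wus (0.021), CG2887 (-0.055), CG7872 (0.11), CG14650 (0.23), CG17187 (-0.11), Dpit47 (-0.016), p23 (-0.058), CG4461 (-0.067), CG7409 (-0.17), CCT2 (0.11), CCT4 (0.059), CCT5 (0.060), Hsp60C (0.086), Hsp60D (-0.26) and mgr (-0.19). Scaling to equal spread put p23 at -0.0017, and spot medians put Hsp60D at -0.073. The turned values without 1 array, added after the data were seen, were 0.30 to 0.63 for Hsp68, 0.22 to 0.54 for Hsc70-1, 0.17 to 0.98 for Hsc70-2, -0.090 to 0.11 for DnaJ-1, -0.046 to 0.43 for stv and -0.40 to 0.21 for Sgt. The cause of these shifts was not tested. Single spots give no gene value and have none here.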
